A study of Mus musculus with 2 samples.

Results

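The TNF superfamily ligands are a family of trimeric signalling proteins, most of them anchored in the cell membrane, through which activated lymphocytes act on cells that carry the matching TNF receptors. Followed here were 10 such genes known from activated T cells, namely Tnfsf11, Cd70, Fasl, Tnfsf8, Tnfsf4, Tnfsf9, Tnfsf14, Tnf, Lta and Ltb. The members were chosen by gene symbol, with their measured differences between the arrays already known, and every probe set annotated to that symbol alone was taken. They were 10 genes read by 13 probe sets, out of 11807 genes and 22716 probe sets on the array. Tnfsf11, Fasl and Tnfsf14 had more than 1 probe set, and the other 7 genes had 1 each.

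The data were 2 microarrays of mouse CD4+ T cells. The array labelled IL-27-treated, below the IL-27 array, came from naive CD4+ T cells of female C57BL/6J mice after 60 h of activation by plate-bound antibodies to CD3 and CD28, with recombinant murine IL-27 at 25 ng/ml. The array labelled untreated, below the untreated array, came from cells of the same strain, sex, organs (spleen and lymph nodes), activation and time without added IL-27. Both groups thus shared the activation, and there was 1 array per group, with no replicate. The labels do not give the number or age of the mice. No difference between the arrays could therefore be set against the spread between cultures, no test was run, and the values below describe 2 arrays.

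Intensities are on a linear scale after RMA, a method that corrects background, equalizes the distributions of arrays and summarizes the probes of a probe set. A difference is the log2 intensity on the IL-27 array minus that on the untreated array. A gene with several probe sets is represented by the one with the highest mean log2 level. A background floor was set at an intensity of 24.3, the 95th percentile of 42 genes of other tissues, which left 6901 genes that passed it on 1 array or both. Genes whose intensities were 2-fold or more apart were called higher or lower.

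Binding of a TNF superfamily ligand clusters its receptor, which recruits TRAF adaptors that activate NF-kappaB and MAP kinases, or, for death receptors such as Fas, the adaptor Fadd and caspase-8. In T cells the ligands are induced after antigen receptor signalling and serve in costimulation (Cd70, Tnfsf4, Tnfsf9), killing and contraction (Fasl), bone and lymph node biology (Tnfsf11) and inflammation (Tnf, Lta). IL-27 is a cytokine that acts on CD4+ T cells through a cell-surface receptor.

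The direction of every signed value rests on the array labels, and a number of genes went against the known actions of IL-27. Several known to be induced by IL-27 were lower on the IL-27 array, among them Socs3 at 185.8 against 1122 on the untreated array, and Il21 at 26.7 against 384.3. Prdm1 and Il10 lay below the floor on the IL-27 array and at 189.8 and 47.2 on the untreated array. Il2 and Gata3, which IL-27 is known to restrain, were higher, with 1853 against 338.0 for Il2 and 166.4 against 36.5 for Gata3. Other genes known to be raised gave small differences of both signs, with Irf1 at 0.34, Psmb9 at 0.55, Tbx21 at -0.23 and Gbp2 at -0.43. These genes were picked with their values known. Whether the labels were exchanged was not tested, and with 1 array per group it cannot be settled here. Were they exchanged, each difference below would keep its size and change its sign.

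Markers of the labelled cell type were present. All 9 measured genes of a CD4+ T cell list and all 9 of an activated T cell list were above the floor. On the IL-27 array Cd4 had an intensity of 395.4 and Cd3e 546.2, against 342.5 and 607.0 on the untreated array. Of the CD4+ T cell genes 7 of 9 had negative differences, with a median of -0.24, and 0 were 2-fold apart, the lowest difference being that of Cd5 at -0.69. Over all genes above the floor, 3283 of 6901 had negative differences, the median was 0.02, and 1.49% were at least 2-fold higher and 2.72% lower. Of the activated T cell genes 6 of 9 had negative differences, with a median of -0.10, the lowest being that of Tnfrsf9 at -0.77. The 1 gene among them at least 2-fold higher was Cd44, an adhesion receptor that increases on activated T cells, with 841.8 on the IL-27 array against 374.6 on the untreated array, and its dimmer probe set differed by 0.89. Il2ra, also of that list, differed by 0.56 by its brighter probe set and by -0.85 by its dimmer one, so its direction was not settled. The part of activation state in the ligands' differences was not tested. Of the other cell types that express these ligands, 0 of 6 natural killer cell markers, 1 of 8 B cell markers (Cd79b, 25.6 against 20.2) and 2 of 10 myeloid markers (Cd68, 27.5 against 54.9, and Csf1r, 24.4 against 26.2) were above the floor. Summed intensities were 69.9 against 72.1 for the natural killer cell list, 111.2 against 109.9 for the B cell list and 160.7 against 187.6 for the myeloid list. These sums took in all measured genes, most of them below the floor, so nothing is read from their comparison. Cd8a was below the floor on both arrays, while Cd8b1 had 176.5 against 119.3, and its part in the results was not tested.

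The ligands fell into 4 that were at least 2-fold higher on the IL-27 array and 6 that were within 2-fold. The 4 were Tnfsf11, Cd70, Fasl and Tnfsf8, and 0 were at least 2-fold lower. Over all genes above the floor, 1.49% passed 2-fold as higher and 2.72% as lower, and since the genes were chosen with these values known, nothing is read from the contrast of the shares. By probe set, 6 of the 13 were at least 2-fold higher and 0 lower, where 1.30% and 2.56% of all probe sets above the floor were. The median difference of the 10 genes was 0.35, beside 0.02 over all 6901 genes. In such bulk RNA, fewer cells that express a gene and less RNA per cell cannot be told apart.

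**Figure D1:**
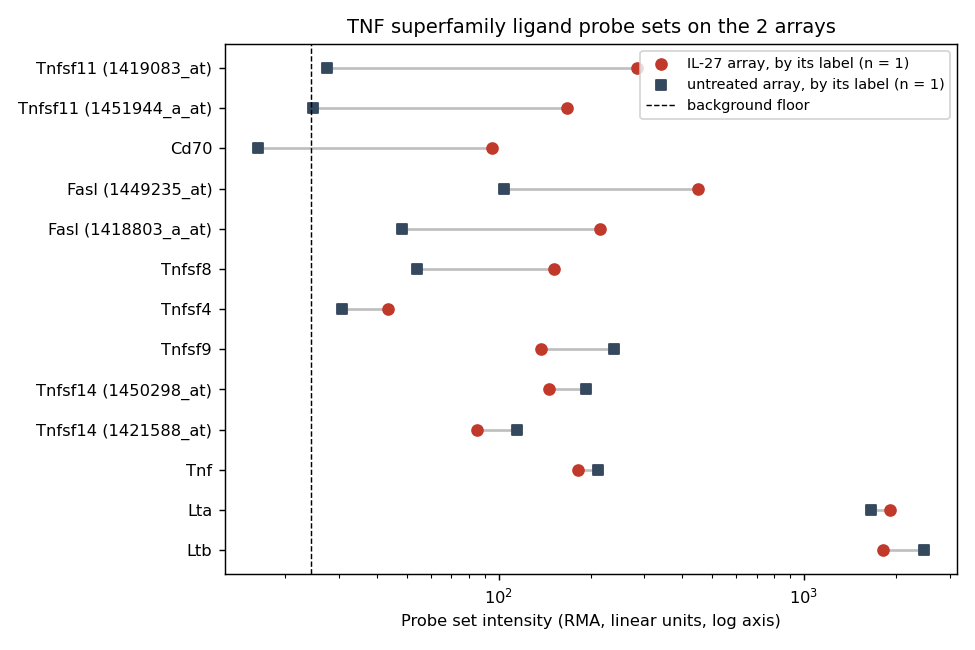
Intensity of each of the 13 ligand probe sets (log axis) on the IL-27 array (red circles) and the untreated array (dark squares), 1 array each, with the background floor of 24.3 as a dashed line. The widest gaps belong to Tnfsf11, Cd70, Fasl and Tnfsf8, and Cd70 lies below the floor on the untreated array.

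Tnfsf11 encodes RANKL, which drives osteoclast formation and lymph node development and supports dendritic cells. Its brighter probe set had an intensity of 283.4 on the IL-27 array and 27.5 on the untreated array, a 10.3-fold difference or 3.36 on the log2 scale. Its other probe set, of a type whose probes are shared by transcript variants of 1 gene, gave 167.0 and 24.7, or 6.77-fold. On the untreated array both probe sets thus lay just above the floor. The difference of the brighter probe set was the 2nd highest of the 6585 genes that were above the floor on both arrays. With a higher floor of 27.8, used below as an alternative, both probe sets would lie under the floor on the untreated array. Tnfsf11 would then leave that ranking. IL-27 has been described to restrain Tnfsf11 in mouse CD4+ T cells, so the sign here is opposite to that description.

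Cd70 encodes the ligand of the costimulatory receptor Cd27. It had an intensity of 95.3 on the IL-27 array and 16.3 on the untreated array, where it was below the floor. Against the floor it was at least 3.92-fold higher on the IL-27 array. Cd70 was the one member that passed the floor on 1 array alone, and the other 9 passed it on both.

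Fasl encodes Fas ligand, which triggers apoptosis of cells that carry Fas. Its brighter probe set had intensities of 450.3 on the IL-27 array and 104.3 on the untreated array, or 4.32-fold. The other gave 214.6 and 48.2, or 4.45-fold, and both probe sets were above the floor on both arrays. The difference of the brighter probe set ranked 13th from the top of the genes above the floor on both arrays.

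Tnfsf8 encodes CD30 ligand, which binds the receptor Tnfrsf8. It had an intensity of 152.4 on the IL-27 array and 54.1 on the untreated array, or 2.82-fold higher, and ranked 26th from the top among the 6585 genes above the floor on both arrays.

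The sequence before the start site was at hand for 7 of the 10 genes, 3 of the higher ones and 4 of those within 2-fold. The 250 bases upstream of the RefSeq start site (build GRCm38.p6) are shown for the 3 higher genes and, for contrast, for the lymphotoxin genes Lta and Ltb, which held the only matches to the STAT-type motif among the 7. Tnfsf11 lies at chr14:78308044-78308293 on the minus strand, Fasl at chr1:161788496-161788745 on the minus strand, Tnfsf8 at chr4:63861285-63861534 on the minus strand, Lta at chr17:35205352-35205601 on the minus strand and Ltb at chr17:35194257-35194506 on the plus strand. Capitals mark matches to 6 motifs on either strand.
Tnfsf11: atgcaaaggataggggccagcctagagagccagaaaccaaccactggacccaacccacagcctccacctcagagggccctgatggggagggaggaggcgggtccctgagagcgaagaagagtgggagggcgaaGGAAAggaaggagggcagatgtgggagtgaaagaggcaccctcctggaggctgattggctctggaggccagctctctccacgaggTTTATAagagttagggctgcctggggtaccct
Fasl: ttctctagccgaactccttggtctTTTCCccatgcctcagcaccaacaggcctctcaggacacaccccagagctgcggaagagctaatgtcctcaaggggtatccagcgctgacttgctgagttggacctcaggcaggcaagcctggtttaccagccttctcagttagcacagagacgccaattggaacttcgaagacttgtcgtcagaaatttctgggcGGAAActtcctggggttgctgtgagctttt
Tnfsf8: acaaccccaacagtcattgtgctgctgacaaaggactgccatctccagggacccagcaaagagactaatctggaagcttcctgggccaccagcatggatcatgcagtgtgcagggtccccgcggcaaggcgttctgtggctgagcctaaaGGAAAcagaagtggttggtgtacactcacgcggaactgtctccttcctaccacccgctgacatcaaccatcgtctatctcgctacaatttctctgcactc
Lta: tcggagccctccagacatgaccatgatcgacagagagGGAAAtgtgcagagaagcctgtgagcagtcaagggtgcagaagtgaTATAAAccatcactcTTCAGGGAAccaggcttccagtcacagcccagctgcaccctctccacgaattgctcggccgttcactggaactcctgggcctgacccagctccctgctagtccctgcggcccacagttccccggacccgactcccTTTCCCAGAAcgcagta
Ltb: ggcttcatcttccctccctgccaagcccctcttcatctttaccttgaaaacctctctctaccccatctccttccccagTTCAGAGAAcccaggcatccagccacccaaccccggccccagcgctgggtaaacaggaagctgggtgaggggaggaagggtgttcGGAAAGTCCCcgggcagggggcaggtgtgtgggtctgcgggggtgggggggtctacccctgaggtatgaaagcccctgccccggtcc

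The motifs were the STAT-type GAS element TTCNNNGAA, the AP-1 site TGANTCA, the NFAT core GGAAA, the T-box site AGGTGTGA, the TATA box TATAAA and the kappaB consensus. NFAT, AP-1 and kappaB factors are those through which antigen receptor signals reach cytokine genes. The NFAT core was found in all 7 sequences, and in 55.6% of all 32851 RefSeq promoter windows of this length. Of the 3 higher genes, Tnfsf11 held 1 NFAT core and 1 TATA box, read on the opposite strand at position -32 from the start site, Fasl held 2 NFAT cores and Tnfsf8 held 1. The GAS element was found in Lta, with 2 matches, and in Ltb, with 1, and in 7.02% of all windows. The match at -87 in Ltb to the kappaB consensus overlaps its NFAT core, and 7.25% of all windows held that consensus. The AP-1 site was found in Tnfsf14 alone of the 7 and in 6.75% of all windows, and the T-box site in 0 of the 7 and in 1.12%. The letters TATAAA were found in Tnfsf11, in Tnf at -29 and in Lta at -167, and in 12.4% of all windows. These matches describe letters in the window and are not evidence of binding.

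The 6 ligands within 2-fold divided into 2 with positive and 4 with negative differences. Tnfsf4 encodes OX40 ligand, a costimulator of T cells, and had 43.4 on the IL-27 array against 30.7 on the untreated array, a difference of 0.50 at levels near the floor. Lta encodes lymphotoxin alpha, which is secreted as a homotrimer that binds TNF receptors. It had 1917 on the IL-27 array against 1662 on the untreated array, a difference of 0.21.

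Tnfsf9 encodes 4-1BB ligand, a costimulator, and was the member with the lowest difference. It had 137.4 on the IL-27 array against 238.7 on the untreated array, a difference of -0.80, and was 220th from the bottom of the 6585 genes. At a threshold of 1.5-fold it would count as lower, the 1 member to do so, while 7.26% of genes above the floor were lower and 5.14% higher by that measure. At 1.5-fold the same 4 members would count as higher.

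Ltb encodes lymphotoxin beta, which holds lymphotoxin alpha at the cell surface in a heterotrimer that binds Ltbr. It had 1813 on the IL-27 array against 2472 on the untreated array, a difference of -0.45. Its partner subunit Lta thus differed in the other direction, by an amount below 2-fold in both. Tnfsf14 encodes LIGHT, a ligand of Tnfrsf14 and Ltbr, and had 146.3 against 192.9 by its brighter probe set and 85.0 against 115.1 by the other, differences of -0.40 and -0.44. Tnf, the inflammatory cytokine of the family, had 181.9 on the IL-27 array against 211.3 on the untreated array, a difference of -0.22.

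**Figure D2:**
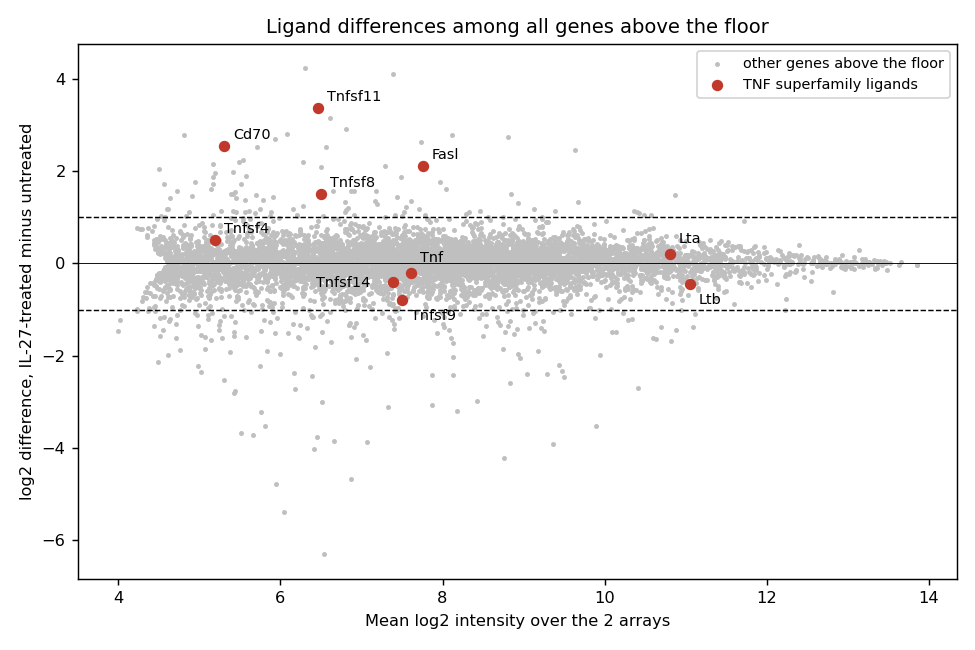
Difference between the arrays (log2, vertical) against mean log2 intensity (horizontal) for the 6901 genes above the floor, 1 point per gene, with the 10 ligands in red and dashed lines at 2-fold. Tnfsf11, Cd70, Fasl and Tnfsf8 lie above the upper line, and the other 6 ligands lie between the lines.

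Agreement among probe sets was the one measure of error within these data, and it covers the probes alone, not cultures or hybridizations. Over 2252 genes with several probe sets above the floor, the range of differences within a gene had a median of 0.21 and a 95th percentile of 0.64. The probe sets of Fasl and of Tnfsf14 lay within 0.044 and 0.037 of each other, and those of Tnfsf11 were 0.61 apart.

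Over the 2 arrays, a pattern is no more than a difference. The 3 genes with the differences closest to that of Tnfsf11 were Eomes, a T-box factor of effector T cells, with 290.4 on the IL-27 array against 32.8 on the untreated array, Penk, the enkephalin precursor, with 307.4 against 41.0, and Phlda1 with 178.0 against 25.6. Their differences of 3.15, 2.91 and 2.80 lay 0.22, 0.46 and 0.57 below that of Tnfsf11.

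None of the other measured ligands of the superfamily was above the floor. Of 8 listed, 5 were measured and all 5 were below it on both arrays. The 10 members were chosen with earlier results known, so nothing is read from this split. Cd40lg, the CD40 ligand of helper T cells, had 16.6 on the IL-27 array against 14.2 on the untreated array. Tnfsf10, which encodes TRAIL, had 16.1 against 11.6, and the B cell survival factors Tnfsf13 and Tnfsf13b had 10.2 against 12.7 and 13.4 against 12.9. Eda, the ectodysplasin of skin appendages, had 15.7 against 17.6 by the brightest of its probe sets. No fold is given for values below the floor, and Tnfsf12, Tnfsf15 and Tnfsf18 were not analysed here.

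Of the 11 receptors for the 10 ligands, 6 were above the floor, and 0 of these were at least 2-fold higher or lower, with a median difference of -0.09. Over all genes above the floor 1.49% were higher and 2.72% lower, so nothing is read from the count of 0. Cd27, the receptor of Cd70, had 292.3 on the IL-27 array against 329.6 on the untreated array, and Fas had 332.4 against 300.4. The OX40 receptor Tnfrsf4 was nearly alike on both arrays, at 5328 and 5343. Thus the receptors Cd27, Fas and Tnfrsf4 were within 2-fold, beside a Cd70 that was at least 3.92-fold higher, a Fasl that was 4.32-fold higher and a Tnfsf4 that differed by 0.50.

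Tnfrsf9, the receptor of Tnfsf9, had 975.6 on the IL-27 array against 1667 on the untreated array, a difference of -0.77 close to that of its ligand. Its other probe sets gave -0.92 and, below the floor on both arrays, 0.06. The TNF receptor Tnfrsf1a had 120.7 against 118.1. Tnfrsf1b differed by -0.21 by its brighter probe set and by 0.36 by its dimmer one, which was below the floor on the untreated array. Tnfrsf11a, which encodes RANK, the RANKL decoy receptor Tnfrsf11b, the CD30 gene Tnfrsf8, Tnfrsf14 and Ltbr were below the floor on both arrays. The receptors of Tnfsf11 and Tnfsf8 were thus below the floor while the ligands were at least 2-fold higher. The receptors of Tnfsf14 and Ltb were below the floor too, beside ligands within 2-fold.

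**Figure D3:**
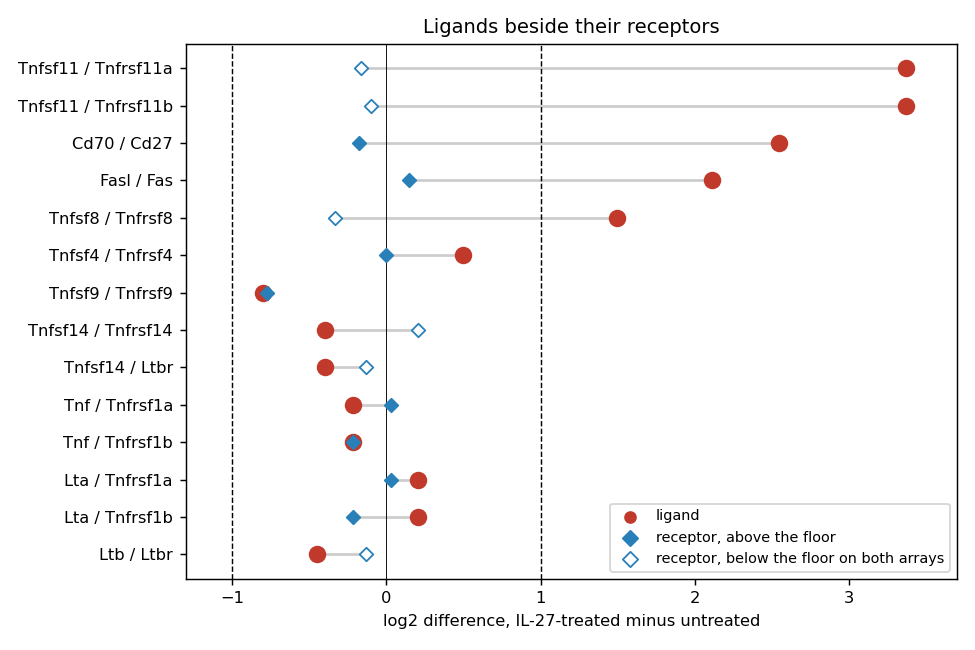
Difference between the arrays (log2, 1 array per group) of each ligand (red circles) and of its receptors (blue diamonds, open where the receptor was below the floor on both arrays), 1 row per pair, with dashed lines at 2-fold. Cd70 is drawn at its measured difference of 2.55, which takes in a level below the floor. Receptors above the floor lie between -0.77 and 0.15, and Tnfsf9 and Tnfrsf9 lie side by side at -0.80 and -0.77.

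Signalling genes downstream of the receptors lay mostly on the lower side. Of 15 listed, 13 were measured and above the floor, 10 of them with negative differences (3283 of 6901 over all genes), and the median was -0.26. At 2-fold, 1 was lower and 0 higher, where 2.72% and 1.49% of all genes above the floor were. Nothing is read from these 2-fold counts. The 1 lower gene was Cflar, an inhibitor of caspase-8 at death receptors, with 175.3 on the IL-27 array against 372.1 on the untreated array, a difference of -1.09. Its dimmer probe sets gave -0.80, -0.62 and -0.72. The NF-kappaB inhibitor Nfkbia differed by 0.76, and the ubiquitin ligases Birc3 and Birc2, which act at TNF receptors, by -0.67 and -0.59.

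Proteases that release ligands from the membrane, with their regulators, had 6 of 9 measured genes above the floor, with a median of -0.02. At 2-fold 0 were higher and 1 lower, beside 1.49% and 2.72% of all genes above the floor, so nothing is read from these counts. The 1 lower gene was Timp1, an inhibitor of metalloproteases, below the floor on the IL-27 array against 182.9 on the untreated array, at least 7.52-fold lower. Adam17, the protease that sheds TNF, had 340.1 on the IL-27 array against 332.3 on the untreated array. Rhbdf1 differed by 0.54 and Sppl2b by -0.34. Adam10 differed by 0.39 by its brightest probe set and by -0.25 by the next, so its direction was not settled.

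Regulators of the decay of TNF family messages had 6 of 10 genes measured, all above the floor and within 2-fold, with a median of -0.12. Zfp36l2, a relative of tristetraprolin that binds AU-rich elements, differed by -0.73, Zc3h12a, which encodes the nuclease Regnase-1, by -0.22, and Zfp36l1 and Tia1 by -0.12 each. Among transcription factors activated by the antigen receptor, 15 of 17 measured genes were above the floor, 0 were at least 2-fold higher and 1 lower, and the median was -0.21. Since 1.49% of all genes above the floor were higher and 2.72% lower, nothing is read from the 2-fold counts of either list. The AP-1 subunit Junb had 489.8 on the IL-27 array against 988.3 on the untreated array, a difference of -1.01. Rel, an NF-kappaB subunit with a role in activated T cells, differed by 0.96, Nfkb2 by 0.71 and Jun by -0.77. The NF-kappaB subunits Rela and Relb, also of that list, differed by -0.50 and 0.17, and the dimmer probe set of Jun by -0.44.

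**Figure D4:**
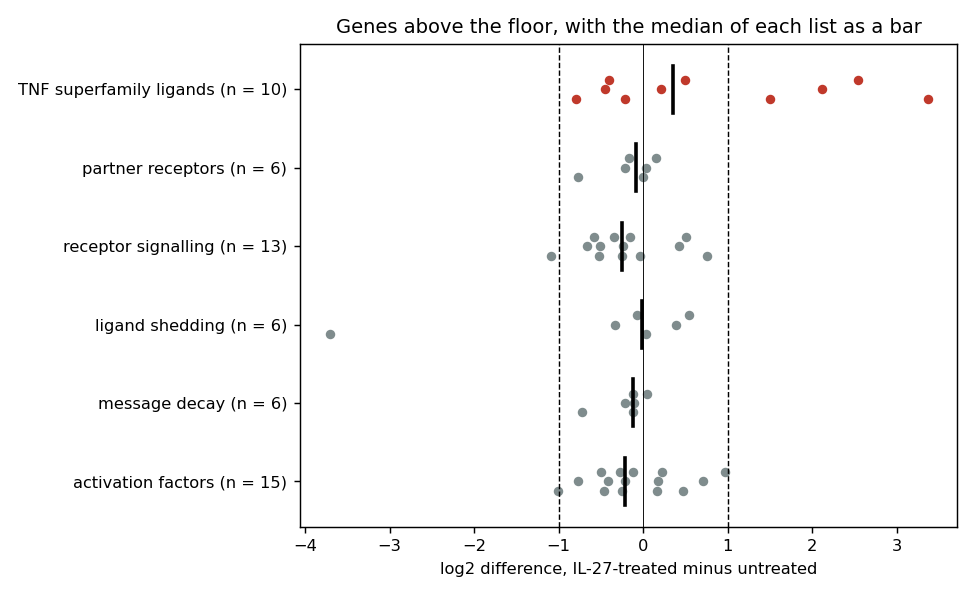
Difference between the arrays (log2, 1 array per group) of the genes above the floor in the ligand family (red) and in 5 lists of receptors and pathway genes (grey), 1 point per gene, with the median of each list as a black bar and dashed lines at 2-fold. The ligands spread from -0.80 to 3.36 around a median of 0.35, and the medians of the other lists lie between -0.26 and -0.02.

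Several ligand genes are neighbours on the chromosome, a property that the choice of members did not use. By the gene order of RefSeq assembly GRCm38.p6, Tnfsf9, Cd70 and Tnfsf14 follow each other on chromosome 17, as do Ltb, Tnf and Lta elsewhere on it, and Tnfsf4 and Fasl lie on either side of Tnfsf18 on chromosome 1. Within the first cluster Cd70 was at least 3.92-fold higher on the IL-27 array, while the genes on either side differed by -0.80 and -0.40. Within the second, Ltb, Tnf and Lta differed by -0.45, -0.22 and 0.21, and near Fasl at 2.11, Tnfsf4 differed by 0.50. Cd70 and Fasl thus passed 2-fold beside ligand genes that did not.

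Genes other than the 10 ligands were looked at in the same way. Among the 3 protein-coding genes to each side of every ligand there were 31 that were no ligands of the 10. Tnfsf15 and Tnfsf18, which belong to the family but were not analysed here, are among the 31. Of these 31, 17 were measured, and 12 of the measured genes were above the floor. Of the 12, 0 were at least 2-fold higher or lower, with a median difference of 0.0053 and a range of -0.43 to 0.36. Over all genes above the floor 1.49% were higher and 2.72% lower. Among so few genes such shares can give 0, so nothing is read from that count. Near Tnfsf11, Epsti1, Dnajc15 and Vwa8 differed by 0.23, 0.12 and 0.12. Near Fasl, Pigc was the only gene outside the family that was measured, and it differed by 0.21. The measured neighbours of Tnfsf8 (Tnc, Pappa and Astn2) were below the floor on both arrays, so they offer no comparison.

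**Figure D5:**
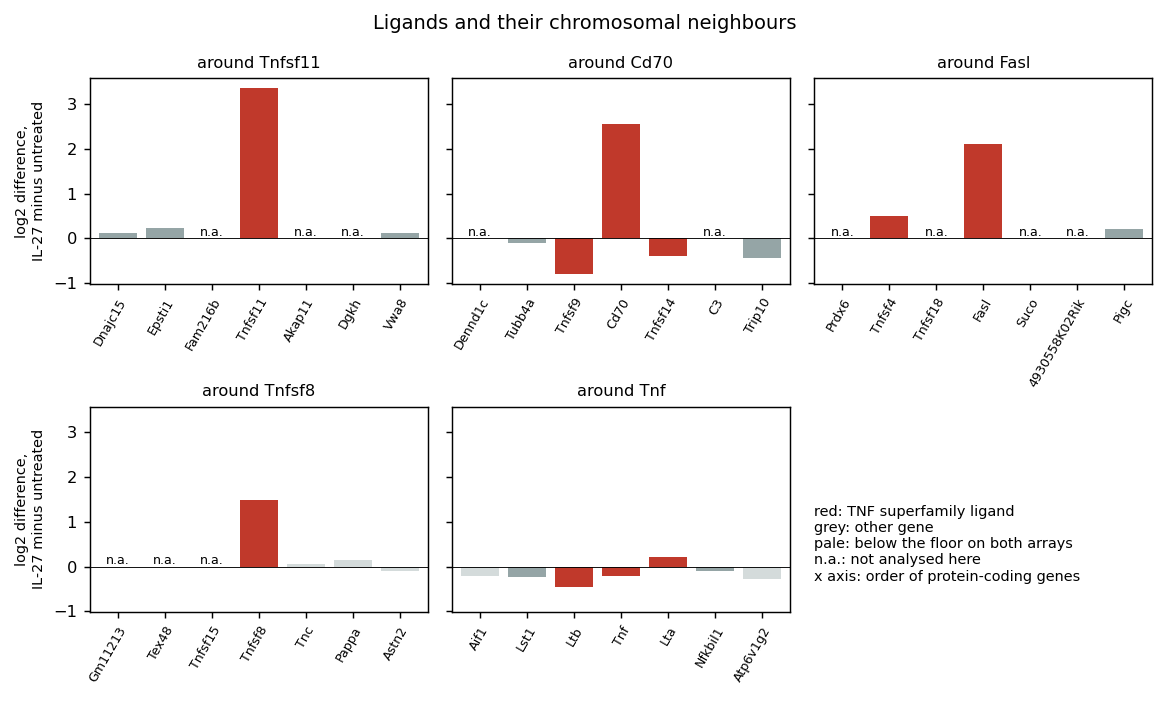
Difference between the arrays (log2, 1 array per group) of 5 ligands and of the 3 protein-coding genes to each side, in chromosomal order, with ligands in red, other genes in grey, genes below the floor on both arrays in pale grey and n.a. for genes not analysed here. The bars of Tnfsf11, Cd70 and Fasl stand out from those of their analysed neighbours, and Tnfsf9 and Tnfsf14 point down on either side of Cd70. Around Tnfsf8 no analysed neighbour was above the floor, so its bar has none to be set against.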

How the data were processed

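RNA of 1 IL-27-treated and 1 untreated culture was measured. Per the labels' protocols, biotinylated cRNA was made from 100 ng of RNA by a 3' IVT kit. The authors deposited 1 intensity per probe set and array, made with RMA per the submitters' processing notes; its version was not given in the sources used here. The method equalizes the arrays, so a change in total RNA cannot be seen, and it compresses dim differences. Depth has no meaning for arrays; their number limits the precision.

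From the deposited intensities, log2 values were computed without a pseudocount (Python 3.11.15, pandas 2.3.3, numpy 2.4.6, statsmodels 0.14.6). The platform annotation listed 1 symbol for 18003 of 22716 probe sets, which were used, several for 287 and none for 4426. The floor came from 42 of 48 genes of other tissues. With 1 array per group there was no test. The procedure was tested on simulated arrays with planted shifts larger than the 2-fold threshold. That checks the calling steps alone and says nothing on variation between cultures or on the calls reported here.

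All members, the measured genes of the ligand and receptor lists, those at least 2-fold apart or up to 4 with the largest absolute difference in the 4 other pathway lists, markers above the floor (up to 6 per list) and the 3 genes closest to Tnfsf11 in difference could be named; chromosomal neighbours and genes of the label check were named after their values were seen, as were Cd4, Cd3e, Cd5, Cd44 and Adam17. Il2ra, Rela and Relb were also named after their values were seen. The members and lists were chosen with earlier results of these data known. The 9 alternatives changed the scaling, floor, probe set, pseudocount or fold.

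Motifs were chosen after the values were seen. They were first searched in windows that also held the 50 bases after the start site; the search was then limited to the 250 bases before it, so that no transcribed bases are printed. The same members held each motif in both, and the share of all windows with the GAS element was 8.30% in the longer window against 7.02%.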

Additional observations from a re-analysis of the deposited data

How the results depend on the processing

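The alternatives were subtraction of each array's median, loess, a floor at the 99th percentile (27.8), no filter, dim values raised to the floor, the mean of probe sets, the probe set with the largest difference, a pseudocount of 16 and a 1.5-fold threshold. Under all 9, 4 ligands counted as higher. Under 8 of them 0 counted as lower, and at 1.5-fold 1 did, Tnfsf9, which follows from the lower threshold; that threshold also gave 355 higher and 501 lower genes in all, against 103 and 188 at 2-fold. Under the 8 others, the difference ranged from 2.78 to 3.40 for Tnfsf11, 1.78 to 2.58 for Cd70, 1.95 to 2.15 for Fasl, 1.26 to 1.53 for Tnfsf8 and -0.83 to -0.73 for Tnfsf9, and each of the 10 ligands kept its sign. The ranges of Cd70, which has only a bound against the untreated array, and of Tnfsf11, which is near the floor there, were the widest of the 10 ligands under these 8. At the floor of 27.8 Tnfsf11 lay below it on the untreated array, so its difference there is a bound too. Not all of the 9 could have changed the count of higher ligands. A threshold of 1.5-fold keeps every gene called at 2-fold, and lifting the filter removes no gene. The floor of 27.8 changed no ligand's difference. The choices of probe set bear on only the 3 ligands with several probe sets. With 1 array per group, variation between cultures was not measured. No paired analysis was possible because each group has 1 array.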
